A study of Mus musculus with 5 samples.

Results

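The NADPH oxidase of phagocytes, the inducible nitric oxide synthase and the superoxide dismutases were described here through 9 genes, Cybb, Cyba, Ncf1, Ncf4, Rac2, Nos2, Sod1, Sod2 and Sod3. They were taken by name from the 41388 genes of the deposited tables, and each symbol matched exactly 1 Ensembl ID. The libraries were poly-A RNA of macrophages sorted from aortas of mice. For the adventitia, 3 libraries were made from ApoE-/- mice on the C57BL/6 strain that had received a high-fat diet for 28 weeks (6 mice are named for the group), and viable CD64+ cells were gated out of the detached outer coat of the whole aorta, abdominal part included. The 2 intima libraries came from C57BL/6 mice, 5 pooled animals for each, and viable CD64+ CD11c+ MHC II+ cells were gated out of thoracic aortas whose outer coat had been taken off; the labels name no gene deletion and no diet for them. Genotype, diet, vessel layer, aortic segment and sort gate differed together and cannot be told apart. The ages and sexes are not given in the labels, which also do not say how the 6 knockout mice were divided among the libraries, so the p-values rest on how these libraries vary, which may be technical in part.

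The libraries held 3941381 to 20806925 counted reads. Apoe, the gene deleted in the donors of the adventitia cells, was at 21.1, 18.9 and 10.8 CPM (counts scaled to the library total) in the adventitia libraries and at 4741 and 4209 CPM in the intima libraries. Macrophage markers were abundant in both groups, with a summed level over 8 markers of 13778 to 19989 CPM in adventitia cells and 12978 to 15964 CPM in intima cells, and Lyz2, the lysozyme of myeloid cells, leading in both. None of the 8 passed in edgeR, DESeq2 or limma voom, where 0.671%, 8.88% and 6.26% of all tested genes did. At an unadjusted p under 0.05 in edgeR, 1 was higher in adventitia cells, Itgam, and 1 lower, Adgre1. Their log2 differences, adventitia minus intima, were 1.34 and -1.08. Of all tested genes 14.3% were higher and 8.16% lower at this level. The common biological coefficient of variation was 0.702 among the adventitia libraries and 1.28 among the intima libraries, which varied more between themselves. In bulk RNA, fewer cells of a type and less RNA per cell cannot be told apart.

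The phagocyte oxidase moves electrons from NADPH across a membrane onto oxygen and so makes superoxide. Its catalytic core is a membrane heterodimer of gp91phox, encoded by Cybb, and p22phox, encoded by Cyba; on stimulation it is joined by cytosolic factors, among them p47phox (Ncf1) and p40phox (Ncf4), and by the small GTPase RAC2. Superoxide dismutases convert superoxide to hydrogen peroxide, in the cytosol (the copper and zinc enzyme SOD1), the mitochondrial matrix (the manganese enzyme SOD2) and the extracellular space (the secreted SOD3, which is abundant in the arterial wall). NOS2 makes nitric oxide in activated mouse macrophages, and superoxide removes nitric oxide by reacting with it.

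RefSeq promoter windows of build GRCm38.p6, from 250 bases before to 50 bases after the annotated start, were found for 5 of the 9 genes: Cybb, Cyba, Ncf1, Sod1 and Sod2. Ncf4, Rac2, Nos2 and Sod3 had no entry. The windows of the 3 oxidase subunits are shown because Cybb and Cyba had lower levels in the adventitia libraries than in the intima libraries while the ranges of Ncf1 overlapped. They were searched on both strands for GAGGAA, a core sequence bound by the myeloid factor PU.1, which is set in capitals and reads TTCCTC where it lies on the other strand.
Cybb, chrX:9469275-9469574, minus strand: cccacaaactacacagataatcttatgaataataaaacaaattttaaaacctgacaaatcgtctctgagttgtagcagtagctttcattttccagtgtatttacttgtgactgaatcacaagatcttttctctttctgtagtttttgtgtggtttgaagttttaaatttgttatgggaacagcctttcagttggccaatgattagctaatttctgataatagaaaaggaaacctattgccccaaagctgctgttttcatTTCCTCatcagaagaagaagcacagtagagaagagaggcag
Cyba, chr8:122432891-122433190, minus strand: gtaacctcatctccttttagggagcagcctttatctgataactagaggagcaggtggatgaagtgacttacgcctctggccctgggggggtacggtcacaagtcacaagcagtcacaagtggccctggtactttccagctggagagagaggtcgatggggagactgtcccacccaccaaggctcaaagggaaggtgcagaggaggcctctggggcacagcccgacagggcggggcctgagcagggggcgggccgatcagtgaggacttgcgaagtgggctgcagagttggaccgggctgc
Ncf1, chr5:134229576-134229875, minus strand: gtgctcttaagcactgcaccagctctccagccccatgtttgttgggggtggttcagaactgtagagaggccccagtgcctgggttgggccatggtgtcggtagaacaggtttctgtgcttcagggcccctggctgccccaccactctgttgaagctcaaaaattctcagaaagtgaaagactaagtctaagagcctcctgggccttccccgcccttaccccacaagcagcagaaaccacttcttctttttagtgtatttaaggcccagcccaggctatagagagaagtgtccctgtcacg
The Cybb window held 1 match, starting 10 bases after the start site, and those of Cyba and Ncf1 held none; 28.3% of 32851 promoter windows of the same length hold it. The Sod2 window had 1 match, starting at position -203, and that of Sod1 none. A core of the antioxidant response element, TGACNNNGC, was searched on both strands too and does not overlap these matches. It occurred once, in the Sod1 window, starting at position -56, and is held by 12.4% of all windows. The start used by RefSeq for Cybb lies inside the longer gene model of the deposited tables, which runs from 9435252 to 9487771 on the X chromosome. The GC content of the windows was 35.3% for Cybb, 60.7% for Cyba and 54.0% for Ncf1.

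All 9 genes passed the filter on low counts, and none of them passed the test between adventitia and intima. In edgeR's quasi-likelihood test 0 of 9 had an adjusted p under 0.05, where 0.671% of the 13408 tested genes did (0.149% higher and 0.522% lower in adventitia cells). At an unadjusted p under 0.05 there were 4 of 9, Cybb, Cyba, Ncf4 and Sod3, all lower in adventitia cells, beside 8.16% of all tested genes that were lower and 14.3% that were higher at this level. DESeq2 called 1 of the 9, Sod3, with 8.88% of all genes called in either direction and 3.65% called lower, and limma voom called 0 of 9 with 6.26% of all genes called. The same 4 genes had CPM ranges that did not overlap between the groups and lay lower in adventitia cells, as 14.1% of tested genes did; 26.4% lay higher. The other 5 overlapped on this scale. After TMM scaling Rac2 and Sod1 were also lower in adventitia cells without overlap, but the share of all tested genes on that scale was not counted. The median log2 difference of the 9 genes, adventitia minus intima as everywhere below, was -0.95, beside -0.14 for all tested genes.

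**Figure D1:**
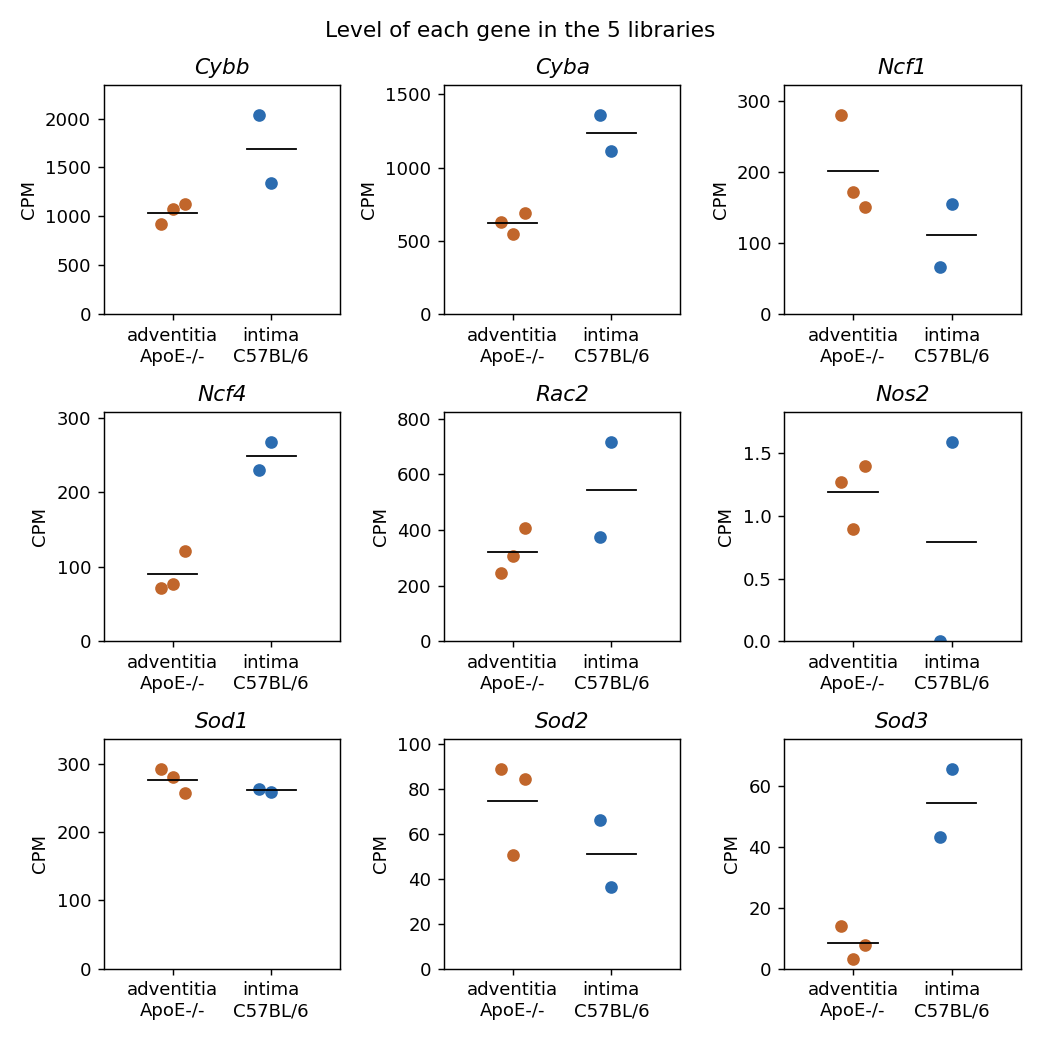
Level of each of the 9 genes in CPM (linear axis from 0) in the 3 adventitia libraries of ApoE-/- mice (left) and the 2 intima libraries of C57BL/6 mice (right); points are libraries and bars group means. Cybb, Cyba, Ncf4 and Sod3 lie lower in all adventitia libraries, and Sod1 stays between 257 and 292 CPM in all 5.

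**Figure D2:**
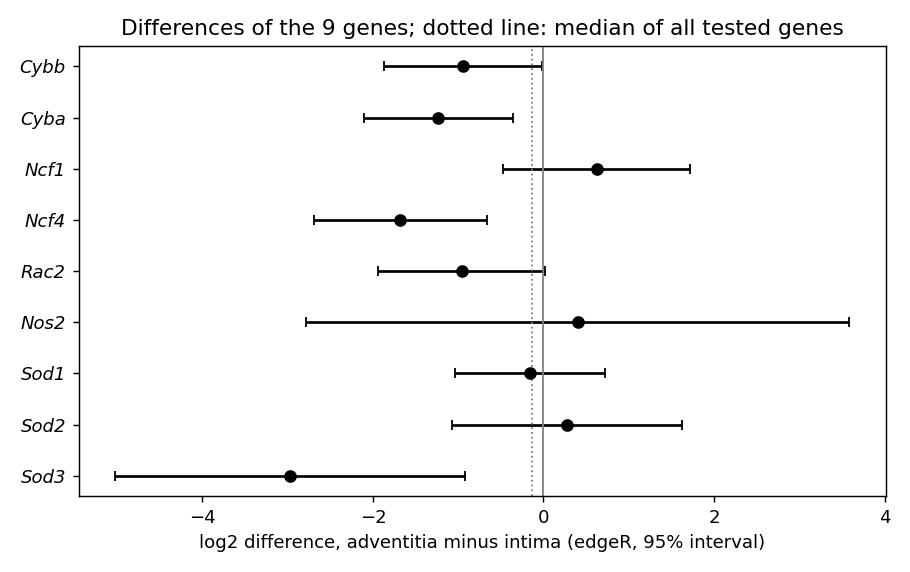
Fitted log2 difference of each gene, adventitia minus intima, with its 95% interval from edgeR; the solid line marks 0 and the dotted line the median of all tested genes, -0.14. The intervals of Cybb, Cyba, Ncf4 and Sod3 lie below 0 before adjustment over all genes, and that of Nos2 is the widest of the 9.

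Both membrane subunits were abundant and lay lower in the adventitia libraries. Cybb (ENSMUSG00000015340, chromosome X) encodes the electron-carrying chain of the oxidase. It had 3620, 10817 and 11288 reads, or 918, 1074 and 1123 CPM, in the adventitia libraries, against 30509 and 27877 reads, or 2038 and 1339.8 CPM, in the intima libraries. Every adventitia library was under both intima libraries, and intima replicate 1 stood well above intima replicate 2. The log2 difference of -0.95 (SE 0.42, 95% interval -1.87 to -0.02) did not pass (edgeR adjusted p = 0.212). Its size rested on the intima libraries, being -0.38 without intima replicate 1 and -1.37 without intima replicate 2.

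Cyba (ENSMUSG00000006519, chromosome 8 from 122424772 to 122432940) encodes the partner chain that stabilises gp91phox and docks the cytosolic factors. The gene stood at 629, 549 and 692 CPM in the adventitia libraries (2481, 5536 and 6959 reads), against 1360.3 and 1115 CPM in the intima libraries (20364 and 23196 reads). The groups did not overlap, and the libraries within each group lay close together, at 624 ± 71.5 CPM in adventitia cells (SD, n = 3) and 1238 ± 174 CPM in intima cells (SD, n = 2). The log2 difference was -1.23 (SE 0.40, edgeR adjusted p = 0.115). Without any 1 library it lay between -1.53 and -0.85.

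None of the cytosolic subunits passed the test. Ncf4 (ENSMUSG00000071715, chromosome 15 from 78244801 to 78262580) encodes p40phox, which binds a phosphoinositide of the phagosome membrane. The gene reached 71.5, 77.1 and 121 CPM in the adventitia libraries (282, 777 and 1216 reads), against 229 and 267 CPM in the intima libraries (3433 and 5560 reads). Adventitia replicate 3 was the highest of its group and still below both intima libraries. The log2 difference was -1.68 (SE 0.46, 95% interval -2.70 to -0.66, edgeR adjusted p = 0.0982), and without any 1 library it lay between -1.98 and -1.43.

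Ncf1 (ENSMUSG00000015950, chromosome 5 from 134220053 to 134229625) encodes p47phox, the organiser whose phosphorylation starts assembly. Its level was 281, 172 and 151 CPM in the adventitia libraries (1106, 1729 and 1521 reads), against 66.7 and 156 CPM in the intima libraries (998 and 3241 reads). The ranges overlapped, since intima replicate 2 lay just above adventitia replicate 3; adventitia replicate 1 was the highest and intima replicate 1 the lowest. The log2 difference of 0.62 (SE 0.50, edgeR adjusted p = 0.511) had a 95% interval of -0.47 to 1.72, which includes differences of either sign. It was 0.32 without intima replicate 1 and 1.16 without intima replicate 2. Ncf1 shares 408 exonic bases, 11.1% of its own, with Gtf2ird2 on the opposite strand. That gene was at 36.0, 10.0 and 5.77 CPM in adventitia cells and at 0.0668 and 4.37 CPM in intima cells, so it was highest and lowest in the same libraries as Ncf1. Without a stated strand setting the reads of the shared bases cannot be told apart, and their part in the Ncf1 values was not tested.

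Rac2 (ENSMUSG00000033220, chromosome 15 from 78559169 to 78572783) encodes the blood-cell GTPase that switches the complex on. Its level was 245, 307 and 409 CPM in the adventitia libraries (966, 3097 and 4114 reads), against 374 and 717 CPM in the intima libraries (5600 and 14912 reads). Intima replicate 1 lay inside the adventitia range on this scale, while after TMM scaling both intima libraries, at 437 and 747 CPM, were above the adventitia range of 210.4 to 409.9 CPM. The log2 difference was -0.96 (SE 0.45, edgeR adjusted p = 0.230), and -0.61 without intima replicate 2.

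Nos2 had the lowest RPKM of the 9 genes in every library. The gene (ENSMUSG00000020826, chromosome 11 from 78920787 to 78960254) had 5, 9 and 14 reads in the adventitia libraries, or 1.27, 0.893 and 1.39 CPM, against 0 and 33 reads in the intima libraries, or 0 and 1.59 CPM. Intima replicate 1 had no read, and 3 reads would equal 0.200 CPM there. The 33 reads of intima replicate 2 have a 95% exact Poisson interval of 1.09 to 2.23 CPM. The intima libraries thus stood at both ends, with the adventitia libraries between them. The fitted log2 difference of 0.40 (SE 1.45, edgeR adjusted p = 0.913) had a 95% interval of -2.78 to 3.58, and the intima libraries differed from each other beyond their counting intervals, which ended at 0.246 CPM in replicate 1. Genes upstream of Nos2 were measured well above it. Ifngr1, the ligand-binding chain of the interferon gamma receptor, was at 376 to 623 CPM in adventitia cells and 335 and 528 CPM in intima cells. Irf1, a transcription factor of the interferon response, was at 59.9 to 105 CPM in adventitia cells and at 124 and 97.7 CPM in intima cells, with an adjusted p of 0.594 in edgeR.

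None of the 3 dismutases passed in edgeR. Sod1 (ENSMUSG00000022982, chromosome 16 from 90220742 to 90226322) was nearly level, at 292, 281 and 257 CPM in the adventitia libraries (1152, 2830 and 2585 reads), against 263 and 259 CPM in the intima libraries (3944 and 5398 reads). Both intima values lay inside the adventitia range. The log2 difference of -0.16 (SE 0.40, edgeR adjusted p = 0.868) had a 95% interval of -1.04 to 0.72, and its sign turned with the scaling, to 0.32 when scaled by upper quartiles and to 0.082 by library size only. These scalings moved the median of all genes as well, to 0.35 and 0.091, and relative to the median of its own scaling Sod1 lay at -0.023 with upper quartiles, -0.0088 with library size and -0.022 with TMM.

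Sod2 (ENSMUSG00000006818, chromosome 17 from 13007839 to 13018119), the mitochondrial enzyme, was at 88.8, 50.6 and 84.4 CPM in the adventitia libraries (350, 510 and 849 reads), against 66.2 and 36.3 CPM in the intima libraries (991 and 755 reads). Adventitia replicate 2 was below intima replicate 1, so the ranges overlapped, with the highest value in adventitia cells and the lowest in intima cells. The log2 difference was 0.28 (SE 0.62, edgeR adjusted p = 0.852), and it was -0.24 without intima replicate 2 and 1.01 without intima replicate 1.

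Sod3 (ENSMUSG00000072941, chromosome 5 from 52363946 to 52371405) had the largest fitted difference of the 9 genes. This secreted enzyme was at 14.0, 3.08 and 7.86 CPM in the adventitia libraries, from 55, 31 and 79 reads, against 43.2 and 65.5 CPM in the intima libraries, from 647 and 1362 reads. The adventitia libraries were all below the intima libraries, and adventitia replicate 2 was the lowest. The log2 difference was -2.97 (SE 0.93, 95% interval -5.02 to -0.92, edgeR adjusted p = 0.113), a fitted level 7.85 times higher in intima cells with an interval of 1.90 to 32.4. DESeq2 called it, with a log2 difference of -2.78 and an adjusted p of 0.0166 on the same genes, while over all edgeR, DESeq2 and voom settings run its adjusted p lay between 0.0166 and 0.392. Its direction was the same in each of these settings.

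Markers of vessel wall cells were set beside Sod3. Endothelial markers summed to 32.8 to 55.1 CPM in adventitia cells and to 732 and 979 CPM in intima cells. Of 10 tested, 4 fell, Pecam1, Vwf, Emcn and Esam, and none rose (edgeR, adjusted p under 0.05). Over all tested genes 0.522% fell and 0.149% rose by this rule. At an unadjusted p under 0.05, 8 endothelial markers were lower and 1 higher, and DESeq2 called 8 and limma voom 5. The shares of all tested genes were 8.16% lower and 14.3% higher at this level, 8.88% with DESeq2 and 6.26% with limma voom. The ranges of 9 tested endothelial markers lay lower in adventitia cells without overlap, and that of 1, Kdr, lay higher. Over all tested genes 14.1% lay lower and 26.4% higher without overlap. Kdr, an endothelial growth factor receptor, was at 1.27, 1.89 and 1.79 CPM in adventitia cells (5, 19 and 18 reads). It was at 0.200 and 0.0481 CPM in intima cells (3 and 1 reads, edgeR adjusted p = 0.162). Smooth muscle markers summed to 44.3 to 68.5 CPM in adventitia cells and to 317 and 254 CPM in intima cells. In edgeR 1 of 8 tested was lower, Tagln, an actin-binding protein, and none higher. At an unadjusted p under 0.05, 4 smooth muscle markers were lower and 0 higher, and DESeq2 and limma voom each called 3. Of the 8 tested, 3 lay lower in adventitia cells without overlap, Tagln, Acta2 and Myl9, and 1 higher, Myh11. Acta2, the highest of this list in intima cells, was at 0, 0.496 and 2.88 CPM in adventitia cells. It was at 145 and 23.5 CPM in intima cells (edgeR adjusted p = 0.0738, DESeq2 adjusted p = 4.5e-05). Myh11 and Cnn1 were scarce in both groups. Myh11 had 4, 7 and 14 reads in adventitia cells and 6 and 0 in intima cells. Cnn1 had 3, 1 and 2 reads in adventitia cells and 4 and 0 in intima cells. Fibroblast markers summed to 667 to 1531 CPM in adventitia cells and to 365 and 362 CPM in intima cells. In edgeR 1 of 10 tested was higher, Lum, a matrix proteoglycan, and none lower. At an unadjusted p under 0.05, 4 fibroblast markers were higher and 1 lower, and DESeq2 and limma voom each called 4. Of the 10 tested, 5 lay higher in adventitia cells without overlap and 1 lower. The part of these cells in the Sod3 difference was not tested.

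Markers of blood cells that also use the oxidase were checked beside its subunits. Neutrophil markers summed to 61.4 to 129 CPM in adventitia cells and to 4.81 and 101 CPM in intima cells. Their most abundant gene in adventitia cells was S100a8, at 20.5 to 57.8 CPM against 0.0668 and 1.01 CPM in intima cells. In intima cells it was Csf3r, at 4.41 and 59.8 CPM against 14.8 to 24.5 CPM in adventitia cells. Cxcr2 was at 0 and 17.5 CPM in intima cells against 0.796 to 2.03 CPM in adventitia cells. S100a9 was at 0 and 22.7 CPM in intima cells against 6.55 to 26.9 CPM in adventitia cells. For Csf3r and Cxcr2, intima replicate 2 was thus above all adventitia libraries. Elane had 1 read in all libraries together, and Ly6g had 2 or 3 reads in each adventitia library and 0 in both intima libraries. None of 6 tested neutrophil markers passed in edgeR, 3 were higher at an unadjusted p under 0.05, and DESeq2 called 2 and limma voom 1. Monocyte markers summed to 2365 to 2516 CPM in adventitia cells and to 663 and 926 CPM in intima cells, with 1 of 7 tested higher, Plac8, and F13a1, a coagulation factor chain, leading in both groups. At an unadjusted p under 0.05, 4 monocyte markers were higher, and DESeq2 and limma voom each called 2. Ccr2, a chemokine receptor of monocytes, was at 540.2, 1067 and 801 CPM in adventitia cells and 109 and 228 CPM in intima cells (edgeR adjusted p = 0.0868). T and NK cell markers summed to 3.55 to 10.7 CPM in adventitia cells and to 0.134 and 84.4 CPM in intima cells, and B cell markers, led by Ighm, to 236 to 773 CPM in adventitia cells and to 961 and 888 CPM in intima cells. None of 4 and 5 tested genes of these lists passed in edgeR; 0 and 2 had an unadjusted p under 0.05, DESeq2 called 0 of each, and limma voom called 0 and 1. The shares of all tested genes for these rules are those given beside the endothelial markers. The part of these blood cells in the oxidase values was not tested.

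Levels of different genes were compared per exonic length, as deposited RPKM. In the adventitia Cyba was highest at 725 to 913 RPKM, followed by Sod1 at 398 to 452, Cybb at 158 to 193 and Rac2 at 80.7 to 135 RPKM, with no overlap between these neighbours. Ncf1 at 41.3 to 76.6 and Ncf4 at 35.4 to 59.8 RPKM overlapped, and Sod2 at 13.2 to 23.2, Sod3 at 0.862 to 3.91 and Nos2 at 0.213 to 0.332 RPKM followed without overlap. In the intima Cyba led at 1795 and 1471 RPKM, then Sod1 at 408 and 402. Cybb at 351 and 231 and Rac2 at 123 and 236 RPKM overlapped, and Ncf4 at 113 and 132 RPKM overlapped with Rac2. Ncf1 at 18.2 and 42.5, Sod3 at 12.1 and 18.3 and Sod2 at 17.3 and 9.49 RPKM formed an overlapping group above Nos2 at 0 and 0.378 RPKM. Ncf4 was above Ncf1 in adventitia replicate 3 and in both intima libraries, and Sod3 was above Sod2 in intima replicate 2 alone. Sod1 made up 94.2 to 96.9% of the summed RPKM of the 3 dismutases in adventitia cells and 93.3 and 93.5% in intima cells, while Sod3 made up 0.192 to 0.815% in adventitia cells and 2.77 and 4.27% in intima cells. The gene models of Cyba and Sod1 are short, at 758 and 646 bases against 5808 for Cybb, and RPKM depends on these lengths.

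**Figure D3:**
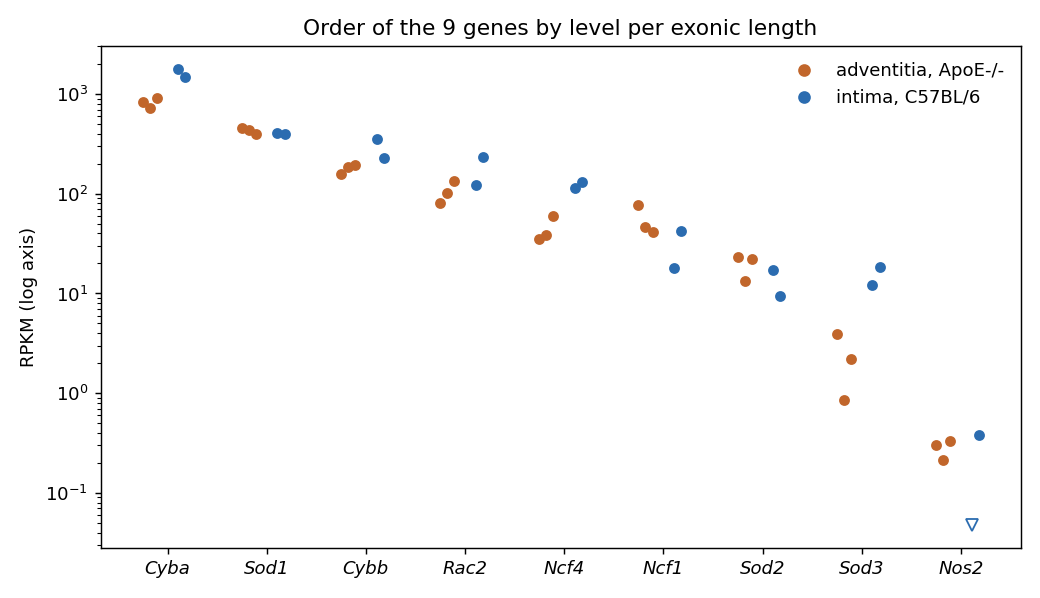
RPKM of each gene on a log axis, ordered by the mean over the 5 libraries; each point is a library, adventitia left of intima, and the open triangle marks intima replicate 1 with no Nos2 read, drawn at its floor of 3 reads. Ncf4 and Sod3 lie higher in both intima libraries, so that Ncf4 is above Ncf1 and Sod3 near Sod2 there.

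Ratios between genes of the same library do not depend on how the libraries are scaled. Of 10 pairs, 9 had reads in every library and were compared by an exact two-sided permutation test, in which 3 against 2 libraries cannot give a p below 0.1. Ncf4 stood at 0.462, 0.815 and 1.45 times the RPKM of Ncf1 in the adventitia libraries and at 6.23 and 3.11 times in the intima libraries. Every adventitia ratio was below every intima ratio, by a mean log2 difference of -2.43 (exact p = 0.1, adjusted p = 0.225 over the 9 pairs). Ncf1 relative to Cybb was at 0.484, 0.253 and 0.214 in adventitia cells and at 0.0519 and 0.184 in intima cells (difference in log2 ratio 1.60, exact p = 0.1, adjusted p = 0.225). This ratio was again lowest in intima replicate 1, and the difference was 0.69 without that library and 2.52 without intima replicate 2.

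The balance of dismutase and oxidase transcripts was read from further pairs. Sod1 relative to Cybb was at 2.86, 2.35 and 2.06 in adventitia cells and at 1.16 and 1.74 in intima cells, again without overlap (difference in log2 ratio 0.76, exact p = 0.1, adjusted p = 0.225). It was 0.46 without intima replicate 1. Sod3 relative to Sod1 was at 0.00864, 0.00198 and 0.00553 in adventitia cells and at 0.0297 and 0.0457 in intima cells (difference -3.01, exact p = 0.1, adjusted p = 0.225). The ratio of Cybb to Cyba, the 2 chains of the membrane dimer, overlapped between the groups, at 0.190, 0.255 and 0.212 in adventitia cells and 0.196 and 0.157 in intima cells (difference 0.31, exact p = 0.3, adjusted p = 0.386). This difference was 0.47 without intima replicate 1, 0.20 without adventitia replicate 2 and 0.15 without intima replicate 2. Rac2 to Cybb differed by -0.05 in log2 ratio (exact p = 0.9, adjusted p = 0.900), with the intima libraries at both ends, at 0.351 and 1.02 times. The pairs Ncf4 to Cybb, Sod2 to Cybb and Sod2 to Sod1 had differences of -0.83, 1.24 and 0.48 with exact p-values of 0.2, 0.2 and 0.4 (adjusted p = 0.300, 0.300 and 0.450). Ncf4 to Cybb was lower in all adventitia libraries, with a difference of -1.24 without intima replicate 1 and of -0.41 without intima replicate 2. Sod2 to Sod1 differed by 0.91 without intima replicate 1, 0.75 without adventitia replicate 2, 0.32 without adventitia replicate 3 and 0.060 without intima replicate 2. The pairs share genes, and at this size no pair could pass a threshold of 0.05.

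**Figure D4:**
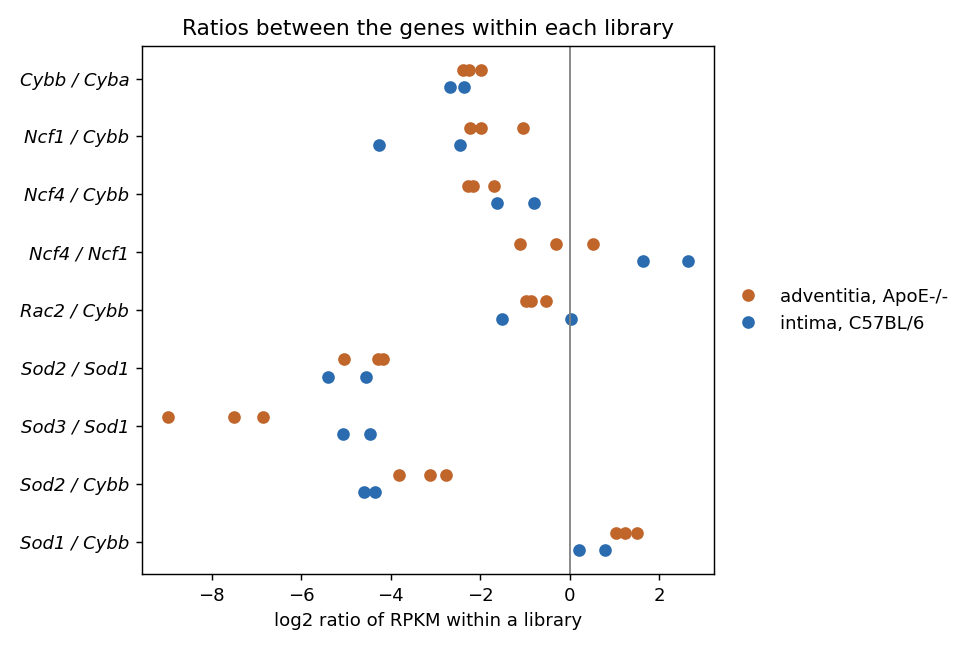
Log2 ratio of the RPKM of pairs of genes within each library, for the 9 pairs with reads in every library; adventitia points are drawn above intima points. Ncf4 to Ncf1, Ncf4 to Cybb and Sod3 to Sod1 lie lower, and Ncf1 to Cybb, Sod2 to Cybb and Sod1 to Cybb higher, in all adventitia libraries.

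Partners of the oxidase outside the 9 genes gave no call. Of 17 listed genes 9 were tested and none passed in edgeR. At an unadjusted p under 0.05 there were 2, both lower in adventitia cells, and DESeq2 and limma voom called none. For this list and those below, 14.3% of all tested genes were higher and 8.16% lower at an unadjusted p under 0.05 in edgeR. DESeq2 called 8.88% of all tested genes and limma voom 6.26%. Cybc1, a chaperone that the membrane dimer needs, was at 89.3, 64.6 and 24.9 CPM in adventitia cells against 117 and 153 CPM in intima cells (log2 difference -1.44, SE 0.58, edgeR adjusted p = 0.170). Its groups did not overlap. Rac1, the widely expressed relative of Rac2, was at 375 to 392 CPM in adventitia cells and 400.3 and 208 CPM in intima cells, and Arhgdib at 707 to 1334 CPM in adventitia cells and at 1863 and 967 CPM in intima cells. The median log2 difference of the tested partners was -0.05.

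Genes that remove peroxide, the product of the dismutases, numbered 16 tested, and their median on the log2 scale was -0.58. None passed in edgeR, and 1 was higher and 4 lower at an unadjusted p under 0.05. DESeq2 called 2, Cat (adjusted p = 0.0169) and Gpx3 (adjusted p = 0.0164), and limma voom 1, Cat (adjusted p = 0.0419). Cat, the peroxisomal catalase, was at 108, 130.4 and 114 CPM in adventitia cells against 280 and 392 CPM in intima cells (log2 difference -1.74, SE 0.42, edgeR adjusted p = 0.0868). Gpx3, the secreted glutathione peroxidase, was at 149, 116 and 250 CPM in adventitia cells against 0.267 and 24.4 CPM in intima cells (log2 difference 3.65, SE 1.25, edgeR adjusted p = 0.126). The intima libraries were far apart for Gpx3. The most abundant members, Gpx1 and Prdx1, overlapped between the groups, with log2 differences of -0.68 and -0.47.

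The next list held Nfe2l2, which encodes NRF2, the regulator of antioxidant genes, its repressor Keap1 and targets of NRF2. It gave 0 calls of 12 tested in edgeR, DESeq2 and limma voom, with 1 higher and 1 lower at an unadjusted p under 0.05. Hmox1, which degrades heme, was at 438, 266 and 185 CPM in adventitia cells against 13.7 and 135 CPM in intima cells (log2 difference 1.79, SE 0.77, edgeR adjusted p = 0.196), and Nqo1, a quinone reductase, was at 1.01, 0.496 and 0.696 CPM in adventitia cells against 3.21 and 12.3 CPM in intima cells (log2 difference -3.60, edgeR adjusted p = 0.217). Neither gene overlapped between the groups. The ferritin genes Fth1 and Ftl1, the most abundant of this list, had log2 differences of -0.74 and -0.31 and overlapped.

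Copper handling supplies the cofactor of SOD1 and SOD3, and its most abundant genes by mean RPKM were Mt1 and Atox1. Mt1 was at 874, 986 and 791 CPM in adventitia cells against 314 and 229 CPM in intima cells (log2 difference 1.45, SE 0.43, edgeR adjusted p = 0.109), and Mt2 at 115, 109.6 and 61.6 CPM in adventitia cells against 28.3 and 11.8 CPM in intima cells (log2 difference 1.96, SE 0.70, edgeR adjusted p = 0.134). Both metal-binding genes lay higher in all adventitia libraries. Atox1, a copper chaperone, was at 498 to 600.3 CPM in adventitia cells and at 899 and 336 CPM in intima cells. None of 9 tested genes of this list passed in edgeR, and 3 were higher at an unadjusted p under 0.05. DESeq2 called 2, Mt1 (adjusted p = 0.0264) and Mt2 (adjusted p = 0.0403), and limma voom 1, Mt1 (adjusted p = 0.0411). The list had a median of 0.21.

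Genes of nitric oxide and arginine metabolism gave no edgeR call among 11 tested, with 4 higher and 1 lower, Ass1, at an unadjusted p under 0.05. DESeq2 called 3, Arg1 (adjusted p = 3.5e-05), Gch1 (adjusted p = 0.00363) and Slc7a2 (adjusted p = 0.0226). Limma voom called 1, Arg1 (adjusted p = 0.0361). Arg1, the arginase that competes with NOS2 for arginine, was at 54.3, 2.98 and 6.56 CPM in adventitia cells, from 214, 30 and 66 reads, against 1 and 2 reads in the intima libraries (edgeR adjusted p = 0.109). Slc7a2, an arginine transporter, had 23, 25 and 71 reads in adventitia cells against 3 and 2 in intima cells (edgeR adjusted p = 0.164). Pts, an enzyme that makes the cofactor tetrahydrobiopterin, was at 83.7 to 166 CPM in adventitia cells against 137 and 21.8 CPM in intima cells. Spr, which completes that cofactor, was at 3.38 to 14.1 CPM in adventitia cells against 20.0 and 49.9 CPM in intima cells. The median log2 difference of the list was -1.50, but its genes went both ways, so it describes no common shift. They ran from -4.65 for Nos3, with 1 and 585 reads in the intima libraries, to 7.53 for Arg1. The median of 8 tested inducers of Nos2 was -0.18, with 0 of those called by edgeR, DESeq2 or limma voom and 0 at an unadjusted p under 0.05.

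**Figure D5:**
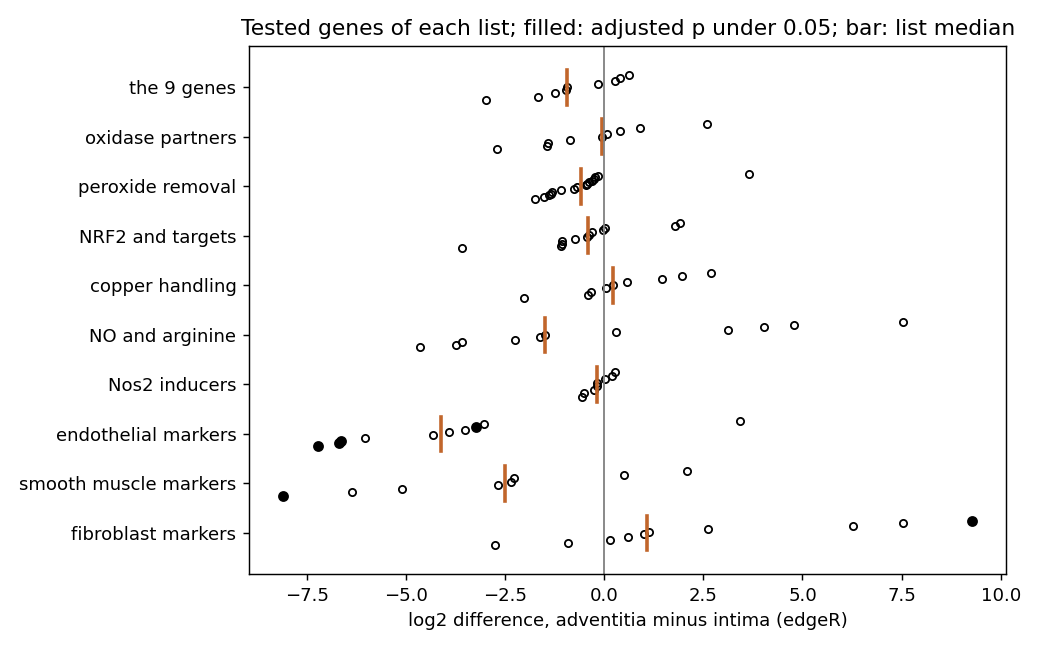
Fitted log2 difference, adventitia minus intima, of each tested gene of the 9-gene set, 6 related lists and 3 lists of vessel wall markers; filled points passed an adjusted p of 0.05 in edgeR and the coloured bar is the list median. The filled points are 4 endothelial markers and 1 smooth muscle marker on the left and 1 fibroblast marker on the right.

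The genes nearest in pattern to each of the 9 were found by the root mean square difference of centred log2 levels over the 5 libraries, among annotated genes with a mean of at least 4 on the log2 CPM scale. Ncf4 was nearest to Cpq, a lysosomal carboxypeptidase (0.0509), and to Idh3g (0.105), Cybb to Atp6v0a1, a subunit of the proton pump (0.0819), and to Nptn (0.0951). Cyba was nearest to Bscl2 (0.0988) and Eif2ak2 (0.116), Rac2 to Snx10 (0.0754) and Tnfrsf13b (0.104), and Ncf1 to Wsb1 (0.131) and Chd2 (0.134). The level pattern of Sod1 had the closest neighbour of all, Lacc1 (0.0425), with Zcchc7 next (0.0773), and Sod2 was nearest to Fmc1 (0.0855) and Eif1ax (0.117). The nearest to Sod3 were Mtap (0.333) and Nkiras2 (0.364). Nos2 was nearest to Atp6v1h (0.150) and Arnt (0.152), which were at 10.0 and 6.68 CPM in intima replicate 1 and at no less than 51.9 CPM in any other library.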

How the data were processed

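Poly-A RNA of sorted aortic macrophages was converted with the SMARTer Ultra Low kit, amplified for 12 PCR cycles and sequenced as single reads of 50 bases, per the labels' protocols. STAR 2.0.4b, featureCounts 1.4.5 of Subread and the build GRCm38 are listed in the submitters' processing notes; annotation release and strand setting are not given in the sources used here. The deposited tables give a read count, a CPM and an RPKM for each of 41388 Ensembl IDs, per the file headers. The CPM that the authors deposited equals the count scaled to the library total, and the RPKM that the authors deposited equals that CPM per kilobase of the listed exonic length, with 0 mismatches at a tolerance of 1e-06.

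From these, the counts were fitted across the whole table with edgeR 4.0.16 in R 4.3.3 (glmQLFit and glmQLFTest, TMM factors from 0.856 to 1.16, filterByExpr at its count setting of 10 and total setting of 15). Benjamini-Hochberg adjustment ran over the 13408 tested genes, with calls at an adjusted p under 0.05. Standard errors are the log2 difference over the square root of F. Ratios within a library used the deposited RPKM and exact two-sided permutation tests. Symbols were matched for 40254 IDs. Low values are limited by depth: 3 reads equal 0.761 CPM at the lowest depth and 0.144 CPM at the highest. Intervals and floors cover counting error only, because amplified reads lacking molecular identifiers are not independent molecules.

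The members, the gene lists and the tests were chosen with earlier results of these data known. Named genes are the 9 members; in each list the genes called, the 2 highest by mean RPKM and the 2 with the smallest p; in each cell type list the highest by CPM per group; for each member the 2 genes nearest in pattern; and Apoe. Any other gene named was picked with its values known. The test was run on counts simulated for the same numbers of libraries, with a common spread for all genes and both groups. The smallest simulated fold change was larger than the fitted one of every member but Sod3. The test recovered few of the smaller fold changes simulated, so a missed call does not show equal levels. Results were recomputed with other scalings and filters, thinned counts, DESeq2 1.42.0, voom of limma 3.58.1, a replicate block and without each single library. A lone intima library was then taken to be as variable as the other group. Tables and figures used Python 3.11.15, pandas 2.3.3, scipy 1.17.1 and matplotlib 3.10.9.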

Additional observations from a re-analysis of the deposited data

How the results depend on the processing

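None of the 9 genes was called by edgeR under any scaling, filter, thinning, block or left-out library, nor by limma voom; DESeq2 called Sod3 (log2 difference -2.78, adjusted p = 0.0166). Of 115 alternative values 107 kept their direction and their side of the threshold. Sod1 turned to 0.32 with upper-quartile scaling, 0.082 with library size alone, 0.0099 with the filter of 1 CPM throughout a group and 0.23 with thinned counts. Without any 1 library Sod1 ran from -0.34 to 0.070, Sod2 from -0.24 to 1.01 and Nos2 from -0.43 to 6.39, the last against a library with no read, a value that depends on the prior count. The ratio of Rac2 to Cybb ran from -0.82 to 0.72; the other ratios kept their sign in all settings run. The scalings shifted the median of all genes from -0.14 with TMM to 0.35 (upper-quartile) and 0.091 (library size). Nos2 had no value with thinned counts or with the 1 CPM filter, since it did not pass these filters. The cause was not tested for any of these changes, and low counts limit Nos2.

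Genes called higher in the adventitia numbered 20 in edgeR, 34 with library size alone, 700 with DESeq2, 625 with limma voom, 74 with no filter, 261 with the 1 CPM filter and 31 with thinned counts; those called lower numbered 70, then 46 with upper-quartile scaling, 490 with DESeq2, 214 with limma voom, 312 with no filter and 135 with the 1 CPM filter. The calls were 20 of 90 higher (22.2%) in edgeR, 29 of 75 (38.7%) with upper-quartile scaling, 34 of 93 (36.6%) with library size alone. Without any 1 library the counts ran from 1 (without adventitia replicate 1) to 160 (without intima replicate 1) higher and from 9 to 229 lower, the same libraries. With the replicate block 50 were higher and 133 lower, with no call among the 9 genes; same-numbered libraries shared only a number, with correlations of their deviations of 0.035 for replicate 1 and 0.0057 for replicate 2.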

Other observations

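Other oxidases and nitric oxide synthases, chosen after their values were seen, were scarce or uneven. Nox4, an oxidase of vessel wall cells, had 2, 4 and 111 reads in the adventitia libraries and 6 and 1 in the intima libraries, so that adventitia replicate 3 stood alone. Nos3, the endothelial synthase, had 5, 1 and 6 reads in adventitia cells and 1 and 585 in intima cells, where replicate 2 reached 28.1 CPM. Nos1, the neuronal synthase, was at 6.09, 3.18 and 2.09 CPM in adventitia cells and at 0.267 and 0.0961 CPM in intima cells. Nox1, Nox3 and Noxa1 had 1 to 4 reads in each adventitia library and 0 in both intima libraries.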
